A study of Mus musculus with 6 samples.

Results

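The 10 genes of protein folding in the endoplasmic reticulum (ER) described here are 7 folding factors (Calr, Canx, Hspa5, Hsp90b1, Pdia3, Pdia4 and Pdia6), the transcription factor gene Xbp1 and the sensor genes Ern1 and Atf6. They were taken by gene symbol, 10 of the 21878 genes that the tables list, and each was found once. There were 3 libraries from wild-type mice kept for 3 months on a serine/glycine-free diet (SGFD), and they were set against 3 from wild-type mice on control diet (CD). RNA was sequenced from sorted bone marrow cells that are labelled LT-HSCs, the long-term repopulating stem cells of blood. The gate kept Kit and Sca1 positive cells and left out those with lineage antigens, CD34 or CD135, which Flt3 encodes. The sources used here give neither strain, age nor sex, nor whether each library came from its own mouse, so p-values measure the spread between libraries, which may be technical.

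Secreted and membrane proteins fold in the ER. Hspa5 (BiP) and Hsp90b1 (GRP94) bind unfolded chains there, calreticulin (Calr) and calnexin (Canx) hold glycoproteins by their sugars, and disulfide isomerases form and reshuffle disulfide bonds. When unfolded protein accumulates, the sensors IRE1 alpha (Ern1), ATF6 and PERK (Eif2ak3) start the unfolded protein response: IRE1 alpha splices the Xbp1 mRNA into the form that encodes an active transcription factor, and ATF6 is cut in the Golgi to release one. Both factors act on chaperone genes. Hematopoietic stem cells are known for a low rate of protein synthesis and for sensitivity to this kind of stress.

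Values are FPKM, fragments scaled to the gene's length and the library's total, so levels can be set side by side between genes. The libraries held 18428724 to 19533120 recovered fragments each, and 1005 (Ern1) to 36716 (Calr) of these lay behind a member's value, so counting error was at most 3.15% of a value. Differences are SGFD minus CD on the log2(FPKM + 1) scale, which understates changes of low genes, with a standard error (SE) and a Benjamini-Hochberg adjusted p from limma over 10620 genes, and a gene passed at 0.05. Of those genes 17.7% were higher and 41.8% lower with SGFD, and 19.6% had all 3 SGFD values above all 3 CD values. The median difference of all tested genes was -0.13, and scaling each library by its median ratio moved it to -0.01. The FPKM of all genes summed to 464222 to 485048 in SGFD libraries and 427769 to 433592 in CD libraries. A gene's share of that sum thus rose less, or fell more, than its FPKM, and no fit here used such shares. In RNA from sorted cells, fewer cells of a type and less RNA per cell cannot be told apart.

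The label of the cells was checked on marker genes. The 8 LT-HSC markers summed to 98.0 to 108 FPKM in SGFD libraries and 168 to 171 FPKM in CD libraries. Of the 7 tested, 6 were lower with SGFD, against 41.8% of all tested genes, a share that was larger among long genes. The 7 granulocyte-monocyte progenitor markers summed to 3466 to 3851 FPKM in SGFD libraries and 876 to 905 FPKM in CD libraries. Of these, 7 of 7 were higher, against 17.7% of all tested genes. Cd34 mRNA, whose product the gate excludes, stood at 419 to 435 FPKM in SGFD libraries and 461.5 to 488 FPKM in CD libraries. Cd34 was lower with SGFD (-0.13, adjusted p = 0.0125). Flt3 was also lower (-0.33, adjusted p = 0.000119), at 86.9 to 94.3 FPKM in SGFD libraries and 112.4 to 114.7 FPKM in CD libraries. Progenitor transcripts were thus present in every library. The granulocyte-monocyte markers moved in the direction of most members described next. Cd34 and Flt3 moved in the other, but stood near the background. Cd34 lay -0.003 from the median of all tested genes. Flt3 lay -0.195 from it and -0.039 from the median of genes of like length. The part of these transcripts in the results below was not tested.

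Across the 10 members, 7 rose with SGFD, 1 fell (Ern1) and 2 did not pass (Canx and Hsp90b1). Of all tested genes 17.7% were higher and 41.8% lower. All 10 passed the filter on low values in both diets. In 9 members the 3 SGFD values lay above the 3 CD values, as they did in 19.6% of all tested genes. In 1, Ern1, they lay below, as they did in 45.5%. The members' median difference was 0.28, against -0.13 over all tested genes. After median-ratio scaling 9 members were higher and 0 lower, against 28.8% and 26.8% of all genes, and after quantile normalization 6 were higher and 2 lower, against 21.3% and 24.0%.

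**Figure D1:**
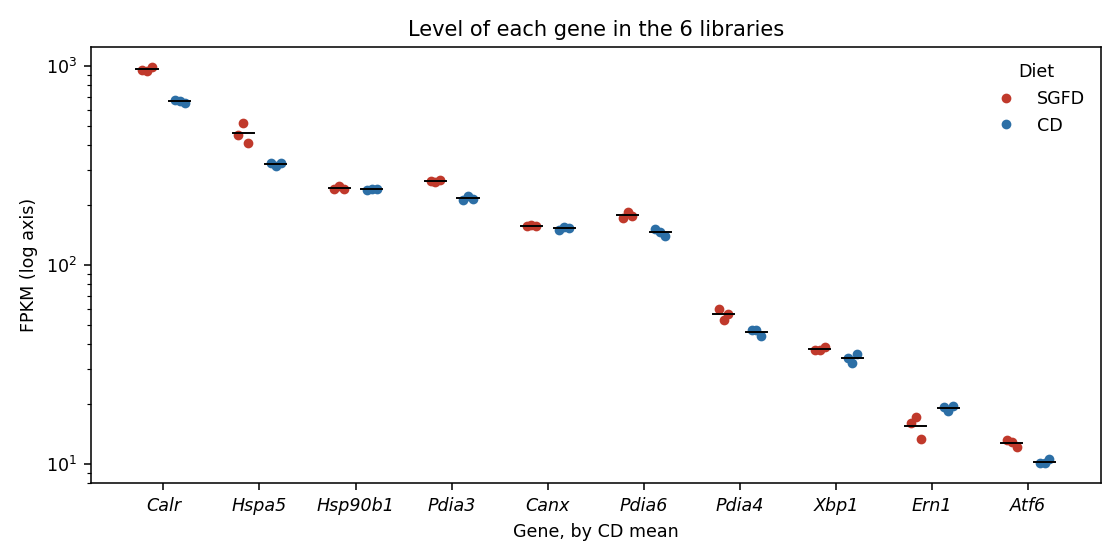
Level of each of the 10 members in every library, in FPKM on a log axis, with SGFD libraries left of CD libraries; points are libraries and bars are diet means. Calr was highest and Atf6 lowest in both diets, and Ern1 is the 1 member whose SGFD points all lie below its CD points.

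Of the lectin chaperones, Calr rose and Canx did not pass; the difference between the genes was not tested. Calr (chromosome 8, 84842088 to 84846931, GRCm38.p6) stood at 956, 945 and 986 FPKM in SGFD libraries, against 671, 666 and 655 FPKM in CD libraries. It was the most abundant member, and no SGFD value came near the CD range. Calr rose 1.45-fold as a ratio of means, by 0.53 on the log2 scale (SE 0.036, adjusted p = 1.87e-06), and by 0.22 after quantile normalization. Canx, its membrane-bound relative (chromosome 11, 50293957 to 50325673), stood at 157, 159 and 158 FPKM in SGFD libraries, against 151, 155 and 154 FPKM in CD libraries. Those ranges lie side by side, and the difference of 0.04 (95% interval -0.035 to 0.12, adjusted p = 0.311) did not pass. The call depended on scaling: Canx was higher after median-ratio scaling (0.18, adjusted p = 0.00398) and with the annotated (0.18, 0.00221) or implied (0.23, 0.000411) length trend taken out. It was lower after quantile normalization (-0.11, 0.032), and the adjusted p ran up to 0.596 over its alternatives. The proportion of the pair shifted with the diet: Calr over Canx was 6.07, 5.95 and 6.26 in SGFD libraries and 4.46, 4.29 and 4.25 in CD libraries.

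Of the HSP70 and HSP90 chaperones, Hspa5 rose and Hsp90b1 did not pass. Hspa5 (chromosome 2, 34772090 to 34776529) stood at 452, 519 and 409.8 FPKM in SGFD libraries, against 325, 315 and 326 FPKM in CD libraries. The SGFD libraries were spread more widely than the CD libraries (SD 55.2 against 5.82 FPKM, n = 3 each), with replicate 2 highest and replicate 3 lowest, and the diets did not overlap. Hspa5 rose 1.43-fold, by 0.51 on the log2 scale (SE 0.07, adjusted p = 0.000191), and by 0.23 after quantile normalization. Hsp90b1 (chromosome 10, 86690841 to 86705444) stood at 240.5, 249.6 and 241.1 FPKM in SGFD libraries, against 239.0, 239.5 and 240.4 FPKM in CD libraries. Its diets were separated by a margin smaller than the spread of the SGFD libraries, and the difference of 0.02 (95% interval -0.054 to 0.10, adjusted p = 0.574) did not pass. After quantile normalization it was -0.23, with adjusted p = 0.000432, and after median-ratio scaling 0.16, with adjusted p = 0.00637. It was also higher with the annotated (0.13, 0.00867) or implied (0.10, 0.0226) length trend taken out; over its alternatives the adjusted p ran up to 0.855. Hspa5 over Hsp90b1 was 1.88, 2.08 and 1.70 in SGFD libraries and 1.36, 1.32 and 1.36 in CD libraries, whereas Hspa5 over Calr averaged 0.479 ± 0.0671 with SGFD and 0.485 ± 0.0122 with CD (SD, n = 3 each).

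All 3 disulfide isomerases rose on the deposited values; differences among the 3 were not tested. Pdia3 (ERp57, which works with both lectin chaperones; chromosome 2, 121413902 to 121438687) stood at 264, 260.4 and 269 FPKM in SGFD libraries, against 212, 221 and 215 FPKM in CD libraries. Pdia4 (ERp72; chromosome 6, 47796141 to 47813512) stood at 59.9, 53.15 and 57.0 FPKM in SGFD libraries, against 47.0, 47.1 and 44.0 FPKM in CD libraries. Pdia6 (P5; chromosome 12, 17266589 to 17284785) stood at 171, 184 and 177 FPKM in SGFD libraries, against 152, 147 and 139.6 FPKM in CD libraries. No diet ranges overlapped in these genes. Catsper2, on the opposite strand to Pdia3, reached at most 0.714 FPKM. The differences were 0.29 (SE 0.037, adjusted p = 0.000106) for Pdia3, 0.29 (SE 0.053, adjusted p = 0.00101) for Pdia4 and 0.28 (SE 0.044, adjusted p = 0.000434) for Pdia6. After quantile normalization Pdia3 lost its call, at 0.07 (adjusted p = 0.0732), and Pdia4 stood at 0.24 and Pdia6 at 0.12. On the deposited values their proportions overlapped between diets: Pdia3 over Pdia6 averaged 1.49 ± 0.0664 with SGFD and 1.48 ± 0.0755 with CD, and Pdia3 over Pdia4 averaged 4.67 ± 0.249 with SGFD and 4.69 ± 0.19 with CD (SD, n = 3 each).

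Together the 7 folding factors summed to 2301, 2370 and 2297 FPKM in SGFD libraries, against 1796, 1792 and 1774 FPKM in CD libraries. That was 0.484%, 0.511% and 0.474% of all FPKM in SGFD libraries and 0.419%, 0.413% and 0.415% in CD libraries. The order of levels also changed by diet: with SGFD it ran Calr, Hspa5, Pdia3, Hsp90b1, Pdia6, Canx and Pdia4, with every neighbouring pair of ranges apart. With CD, Hsp90b1 stood above Pdia3 and Canx above Pdia6, and the ranges of Canx and Pdia6 overlapped. Xbp1, Ern1 and Atf6 followed below Pdia4 in both diets, with their ranges apart.

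**Figure D2:**
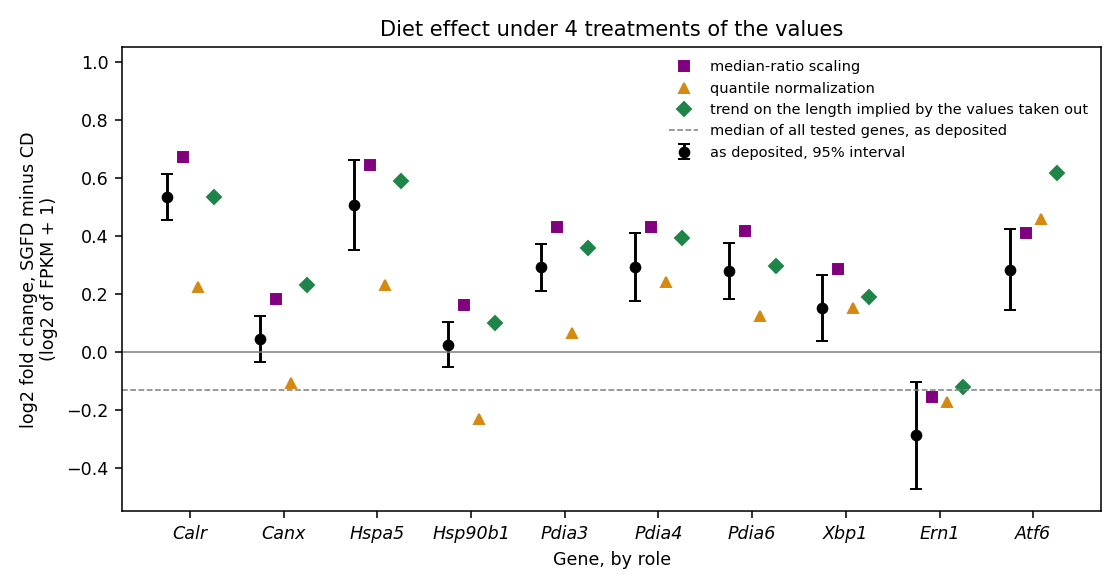
Difference of each member, SGFD minus CD, on the log2(FPKM + 1) scale: black points with 95% intervals use the deposited values, purple squares median-ratio scaling, orange triangles quantile normalization and green diamonds the fit with the trend on implied length taken out. The dashed line is the median of all tested genes at -0.13; Calr and Hspa5 stand highest of the black points at 0.53 and 0.51, Canx and Hsp90b1 stand near 0 and turn negative after quantile normalization, and Ern1 stands below 0 under all 4 treatments.

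The upstream regions of 9 members were read for the ER stress response element (ERSE), the sequence through which ATF6 and XBP1 are known to act on chaperone genes. It was searched as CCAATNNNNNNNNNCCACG, on both strands, in the 250 bases before each RefSeq start on GRCm38.p6. Because the element is known from chaperone genes, its presence in members is not a result of these data. Of the 9, 5 held it (Calr, Canx, Hspa5, Hsp90b1 and Pdia6), against 37 of 32851 windows in all, or 0.113%. They are shown because the element stood in members that rose and in members that did not pass; capitals mark CCAAT and CCACG, or their reverse complements where the match is on the opposite strand.
Hspa5, chr2:34772005-34772063, plus strand: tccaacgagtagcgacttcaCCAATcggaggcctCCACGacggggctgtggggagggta
Calr, chr8:84847055-84847113, minus strand: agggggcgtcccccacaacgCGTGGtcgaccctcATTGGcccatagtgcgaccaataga
Hsp90b1, chr10:86705618-86705676, minus strand: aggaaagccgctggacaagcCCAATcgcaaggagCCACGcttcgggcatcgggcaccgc
Hsp90b1, chr10:86705513-86705571, minus strand: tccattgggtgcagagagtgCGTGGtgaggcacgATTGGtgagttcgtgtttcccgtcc
Canx, chr11:50325780-50325838, minus strand: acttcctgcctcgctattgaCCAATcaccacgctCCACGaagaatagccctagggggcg
Pdia6, chr12:17266471-17266529, plus strand: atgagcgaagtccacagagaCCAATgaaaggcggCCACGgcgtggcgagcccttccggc

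Of these 5 genes, 3 rose (Calr, Hspa5 and Pdia6) and 2 did not pass (Canx and Hsp90b1, the gene with 2 copies). The 4 members with a window but no match were Pdia3, Pdia4, Xbp1 and Ern1, of which 3 rose and 1 fell. Members with and without the element were thus both among those that rose, and a match describes letters, not binding. Outside the members the element stood in 30 genes, of which 9 were tested. Of these 9, 0 were higher and 3 were lower (Adcy3, Pan2 and Zfp57), against 17.7% and 41.8% of all tested genes. The other 6 did not pass, among them Creld2, Dnajc3 and Syvn1 of the ER lists. So few genes cannot be told from that background. Zfp57 passed the filter on low values through the CD libraries alone, so its direction was favoured by the filter.

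Xbp1 rose by the smallest step of the 7 members that rose. It lies on chromosome 11 from 5520641 to 5525993 and stood at 37.5, 37.4 and 38.6 FPKM in SGFD libraries, against 34.1, 32.1 and 35.9 FPKM in CD libraries. The SGFD values lay just above the highest CD value. Xbp1 rose 1.11-fold, by 0.15 on the log2 scale (SE 0.051, adjusted p = 0.0267). The difference was 0.285 after median-ratio scaling and 0.15 after quantile normalization. The summed FPKM of the libraries was also higher with SGFD, and as shares of it the Xbp1 values overlapped between diets. CD replicate 3 held 35.9 FPKM of Xbp1 in a sum of 427769, a larger share than in any SGFD library. SGFD replicate 2, for example, held 37.4 FPKM in a sum of 464222. The share of Xbp1 was not tested. The call was lost without SGFD replicate 1 (adjusted p = 0.0551), SGFD replicate 3 (0.0651), CD replicate 1 (0.0675) or CD replicate 2 (0.117), and without trend and robust moderation (0.0555), within a range of 0.00119 to 0.117 over all alternatives. One value per gene cannot tell spliced from unspliced Xbp1 mRNA.

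The sensor genes moved in opposite directions. Atf6 (chromosome 1, 170704457 to 170868585) stood at 13.1, 12.9 and 12.1 FPKM in SGFD libraries, against 10.1, 10.1 and 10.6 FPKM in CD libraries. Ern1 (chromosome 11, 106397620 to 106487796) stood at 16.1, 17.3 and 13.4 FPKM in SGFD libraries, against 19.3, 18.5 and 19.6 FPKM in CD libraries. Neither gene had overlapping diets, and SGFD replicate 3 was lowest for both. Atf6 rose by 0.28 (SE 0.064, adjusted p = 0.00328) and Ern1 fell by 0.29 (SE 0.083, adjusted p = 0.0124). Ern1 lost its call after median-ratio scaling (adjusted p = 0.109), quantile normalization (0.0851) and either removal of a length trend (0.62 and 0.211), within a range of 0.00154 to 0.62. Atf6 passed under every alternative run, with an adjusted p of at most 0.0167. Its log2 difference was largest, at 0.618, with the implied length trend taken out. Without SGFD replicate 3 the Ern1 difference was -0.19 (adjusted p = 0.0253). Atf6 over Ern1 was 0.817, 0.745 and 0.906 in SGFD libraries and 0.523, 0.543 and 0.543 in CD libraries. Xbp1 over Ern1 likewise averaged 2.46 ± 0.379 with SGFD and 1.78 ± 0.0501 with CD (SD, n = 3 each).

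Eif2ak3, which encodes PERK, stood at 5.73, 5.84 and 4.53 FPKM in SGFD libraries, against 5.73, 5.71 and 6.46 FPKM in CD libraries. Its diets overlapped, and the difference of -0.135 (adjusted p = 0.25) did not pass and turned positive, at 0.10, after quantile normalization.

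Chaperones were then set against sensors within each library. The mean log2(FPKM + 1) of the 7 folding factors minus that of Ern1 and Atf6 was 3.95, 3.94 and 4.12 in SGFD libraries, against 3.73, 3.76 and 3.66 in CD libraries. The diets did not overlap, and the means differed by 0.28. The folding factors' mean was 0.28 higher and the sensors' mean differed by -0.002, a value in which Atf6 and Ern1 cancel. The gap was 0.10 or 0.11 after a length trend was taken out, and -0.064, the opposite sign, after quantile normalization. Median-ratio scaling gave 0.29, but it divides a library by 1 number and so could move the gap only through the 1 added to FPKM.

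**Figure D3:**
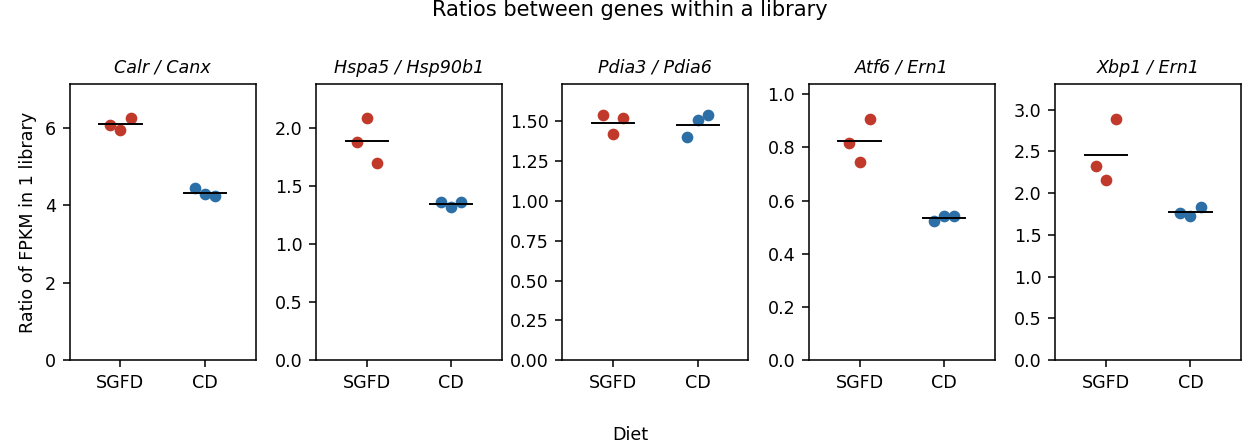
Ratio of FPKM between pairs of members within each library, with SGFD libraries left of CD libraries; points are libraries and bars diet means (n = 3 each). Calr over Canx, Hspa5 over Hsp90b1, Atf6 over Ern1 and Xbp1 over Ern1 lie higher in the 3 SGFD libraries than in the 3 CD libraries, while Pdia3 over Pdia6 overlaps at means of 1.49 and 1.48.

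Gene length moved with the diet difference across the whole table. In 10 groups of genes by the length that the values imply, the median difference ran from 0.17 in the shortest group (median 941.5 bases) to -0.39 in the longest (median 9762 bases). Set against the median of their own length group, members stood at 0.54 for Calr, 0.59 for Hspa5, 0.675 for Atf6, 0.225 for Canx, 0.09 for Hsp90b1 and -0.11 for Ern1. With the trend on implied length taken out of the fit, 9 members were higher and 0 lower, against 24.6% and 21.3% of all genes, and with that on annotated length likewise 9 and 0, against 26.8% and 23.3%.

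**Figure D4:**
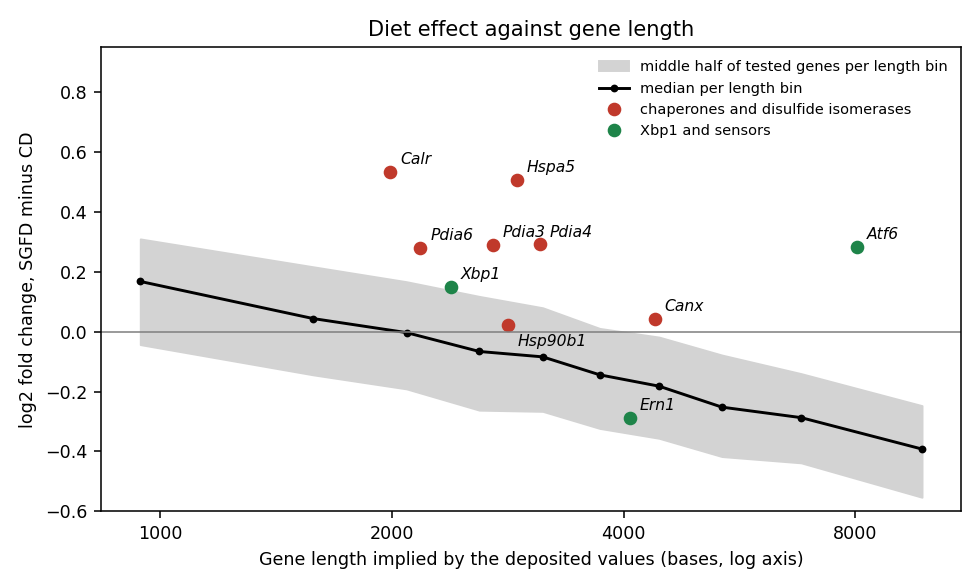
Difference, SGFD minus CD on the log2(FPKM + 1) scale, against the gene length implied by the values, in bases on a log axis; the black line joins the medians of 10 length groups, the grey band spans their quartiles and coloured points are the members. The group medians run from 0.17 down to -0.39, and Atf6, the longest member, lies 0.675 above the median of its group.

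The other genes of the ER pathway were read from lists beside the same background of 17.7% higher and 41.8% lower. Of 21 other folding genes, 13 rose, 0 fell and 8 did not pass, with a median of 0.17. P4hb, a further disulfide isomerase, stood at 335, 324 and 346 FPKM in SGFD libraries, against 218, 227 and 219 FPKM in CD libraries, and rose by 0.60 (adjusted p = 1.56e-06). Erp29, a thioredoxin-fold protein of the ER lumen, rose by 0.53 and Sdf2l1, a partner of Hspa5, by 0.575. The partners of Hspa5 on the list, grouped after their values were seen, were mixed. Of its J-domain co-chaperones, Dnajb11 (0.245, adjusted p = 0.00682) and Dnajc10 (0.17, 0.0154) rose, while Dnajb9 (-0.03, 0.775) and Dnajc3 (-0.12, 0.0897) did not pass. Its nucleotide exchange factors Hyou1 (0.37) and Sil1 (0.27) rose.

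Genes that bring proteins into the ER and glycosylate them mostly rose. Of 17 entry genes, 13 rose, 1 fell and 3 did not pass, with a median of 0.21. Ssr4, Ssr2 and Sec61b, subunits of the translocon complexes, rose by 0.67, 0.56 and 0.54, and Tram1 stood at -0.135 (adjusted p = 0.0444). That call was lost under 11 of 17 alternatives, among them no filter (adjusted p = 0.0746), 5 of the 6 fits with 1 library left out (up to 0.17) and median-ratio scaling, where Tram1 stood at 0.001 (0.99). Of 13 N-glycosylation genes, 10 rose, 0 fell and 3 did not pass, with a median of 0.27, among them Ddost (0.53), Rpn2 (0.44) and Krtcap2 (0.32), subunits of oligosaccharyltransferase. Entry and glycosylation medians stayed above 0 under every scaling in which they were computed.

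Degradation and signalling genes were mixed on the deposited values, where 17.7% of all tested genes were higher and 41.8% lower. Of 18 tested genes of ER-associated degradation, 7 rose, 2 fell and 9 did not pass, with a median of 0.05. That median was 0.177 after median-ratio scaling and 0.103 after quantile normalization. With the implied length trend taken out it was 0.182, and 10 genes were higher and 0 lower. Vimp and Os9 rose by 0.31 and 0.21, and Vcp, the ATPase that pulls proteins out of the ER, by 0.255, which became -0.009 after quantile normalization. Edem3, which trims mannose from misfolded glycoproteins, fell by 0.29 (adjusted p = 0.00858) but lost its call under either scaling and either length trend, at 0.006 with the implied length trend taken out. Of 17 tested genes of the PERK arm and other signalling, 6 rose, 2 fell and 9 did not pass. Their median of -0.04 became 0.09 after median-ratio scaling and 0.038 after quantile normalization. With the implied length trend taken out it was 0.154, and 8 of these genes were higher and 0 lower. Derl3 and Chac1 did not pass the filter on low values.

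Of the PERK arm genes Ppp1r15a, Atf4, Ddit3 and Eif2ak3, Ppp1r15a and Atf4 rose and the others did not pass. Ppp1r15a (GADD34, which reverses eIF2 alpha phosphorylation) stood at 119.6, 140.2 and 115 FPKM in SGFD libraries, against 93.4, 90.4 and 96.0 FPKM in CD libraries, and rose by 0.41 (adjusted p = 0.000424). Atf4 stood at 129, 158.5 and 117 FPKM in SGFD libraries, against 111.5, 106 and 114 FPKM in CD libraries, and rose by 0.28 (adjusted p = 0.0199). SGFD replicate 2 was highest for both, as for Hspa5. Atf4 lost its call under 6 alternatives, among them without CD replicate 1 (adjusted p = 0.054) or CD replicate 2 (0.0795) or after quantile normalization (0.373), within a range of 0.00195 to 0.373, and its difference was 0.16 (0.0225) without SGFD replicate 2. Ddit3 (CHOP) did not pass, at 0.22 (adjusted p = 0.213); after quantile normalization it stood at 0.47 (adjusted p = 0.0173, range 0.0173 to 0.595). Trib3, known as a target of ATF4 and CHOP and named after its value was seen, stood at -0.26 (adjusted p = 0.0779) and did not pass. Eif2s1, which encodes eIF2 alpha, rose by 0.20. Map3k5, a kinase recruited by IRE1 alpha, fell by 0.47 (adjusted p = 0.00367) and lost its call after quantile normalization (0.0536) and with the implied length trend taken out (0.154), within a range of 0.000394 to 0.154.

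**Figure D5:**
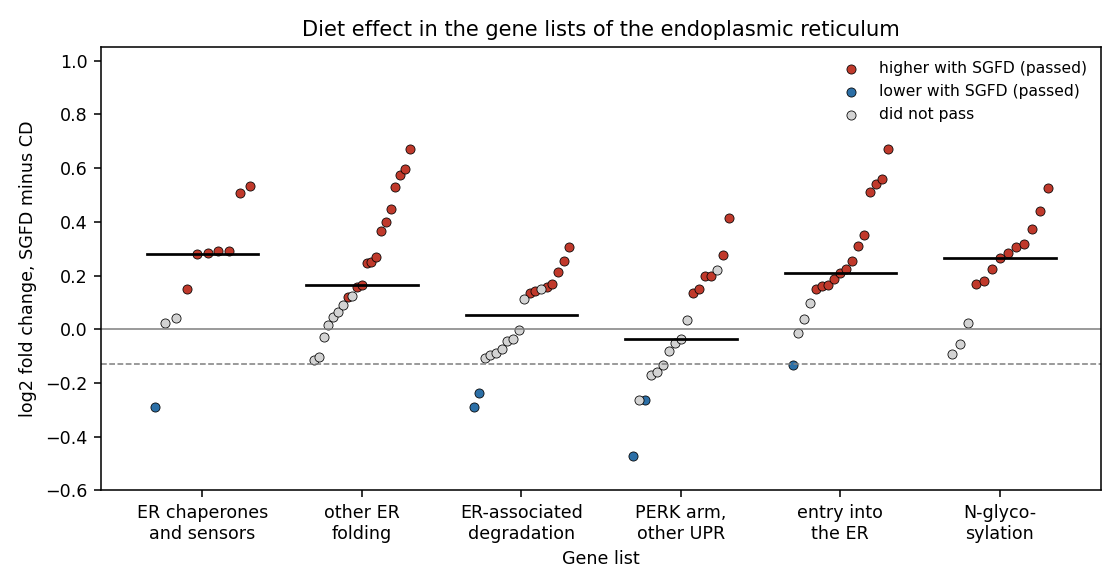
Difference of every tested gene in the 10 members and the 5 other ER lists, SGFD minus CD on the log2(FPKM + 1) scale; black bars are list medians and the dashed line is the median of all tested genes at -0.13. The medians of entry and N-glycosylation genes lie at 0.21 and 0.27, and that of PERK arm and other signalling genes at -0.04, which became 0.09 after median-ratio scaling.

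Markers of plasma cells, a cell type rich in these chaperones, and of macrophages were read in the same libraries. The 6 plasma cell markers summed to 34.4 to 40.4 FPKM in SGFD libraries and 48.6 to 53.4 FPKM in CD libraries, and 0 of the 3 tested were higher with SGFD. Most of these sums was Jchain, at 30.1 to 35.4 FPKM in SGFD libraries and 38.3 to 43.55 FPKM in CD libraries. Jchain and Sdc1 were lower with SGFD, and Mzb1 did not pass. Prdm1, Irf4 and Tnfrsf17 were under 1 FPKM in every library. Macrophage markers summed to 1.10 to 1.62 FPKM in SGFD libraries and 8.08 to 9.70 FPKM in CD libraries. The 4 monocyte markers summed to 239 to 270 FPKM in SGFD libraries and 157 to 166 FPKM in CD libraries, and 3 of the 4 were higher with SGFD. The rise of the folding factors thus stood beside higher sums of granulocyte-monocyte progenitor and monocyte markers and lower sums of plasma cell and macrophage markers. The part of these cell types in it was not tested.

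Across 7876 genes of at least 5 FPKM, those whose centred profile over the 6 libraries lay closest to the mean of the 7 folding factors were Rpl22l1, Srgn, Gm42226, Cct2 and Eif4a3, with a root mean square difference of 0.0113 to 0.0183 on the log2 scale. Cct2 encodes a subunit of the cytosolic chaperonin and stood at 309 FPKM in SGFD libraries and 252 FPKM in CD libraries. The mean of Ern1 and Atf6 lay closest to Dis3, Usp7, Mafk, Pphln1 and Hspa14, at 0.0112 to 0.0262. Atf6 and Ern1 cancel in that mean, which differed by -0.002 between diets. The search could thus return only genes with little diet difference, here -0.017 to 0.026, and these need not resemble either sensor.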

How the data were processed

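The deposited tables hold 1 value per gene symbol and library, taken as FPKM computed by the authors. No source used here names the unit, which was inferred because values fall on steps set by the gene and the library, as FPKM do. Per the submitters' processing notes, fastp, HISAT2 and StringTie were used with GRCm38 and mm10; per the labels' protocols, the library kit was a stranded one for mRNA. For 13615 of the 13616 genes above 0 in at least 4 libraries, each value divided by its library's step gave a whole number within 0.01, from which fragments and implied lengths were taken. The test on log2(FPKM + 1) was limma's (limma 3.58.1, R 4.3.3, trend and robust moderation, two-sided), for genes of at least 1 FPKM in at least 3 of 6 libraries. The fit was tested on simulated data in which equal numbers of genes were raised and lowered, with no length trend. That test does not cover the length trend or the overall shift seen in these data. Replicates were the 3 libraries of each diet, and none was left out. Alternatives were the filter, the pseudocount, scaling, the variance model, library weights, a replicate block, length trends and each library left out; the trend on implied length was added after seeing the data. Members and lists were chosen with earlier results of these data known. Named genes were the members, the 3 smallest adjusted p of each list with the smallest in the opposite direction, and the genes of the PERK arm (Eif2ak3, Atf4, Ddit3 and Ppp1r15a). Coordinates and promoters are from RefSeq, GRCm38.p6.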

Additional observations from a re-analysis of the deposited data

How the results depend on the processing

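Across 17 alternatives, the members' calls kept direction and side of the threshold in 152 gene and setting pairs, were lost in 10, were gained in 6 and changed sign in 2. The count of members lower with SGFD was 0 after median-ratio scaling and after either length trend was taken out, and 2 after quantile normalization. The gap of chaperones over sensors was -0.064 after quantile normalization, 0.104 with the annotated length trend and 0.109 with the implied length trend taken out. After quantile normalization Canx stood at -0.106, Hsp90b1 at -0.23, Vcp at -0.009 and Eif2ak3 at 0.102; Eif2ak3 stood at 0.05 and 0.086 with the annotated and implied length trends taken out. Edem3 stood at 0.006 with the implied length trend taken out, and Tram1 at 0.001 after median-ratio scaling. The cause of these changes was not tested.

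The lists were less stable, mostly in small counts. Degradation genes lower with SGFD numbered 0 after median-ratio scaling, quantile normalization or removal of either length trend, 1 with no filter and 5 with array quality weights. Degradation genes higher with SGFD numbered 4 without trend and robust moderation. Signalling genes higher with SGFD numbered 9 with the annotated length trend taken out and 3 without trend and robust moderation. Signalling genes lower with SGFD numbered 1 with a 5 FPKM filter, either scaling or the annotated length trend, 0 with the implied length trend and 4 with array quality weights. Entry genes lower with SGFD numbered 0 with no filter, median-ratio scaling, the simpler variance model or either length trend. Array quality weights gave 1 lower gene among other folding genes and 1 among N-glycosylation genes, and quantile normalization gave 1 among N-glycosylation genes as well.

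With 1 library left out, members higher numbered 6 or 7 and the lists ranged over 0 to 1 (other folding genes, lower), 3 to 6 (degradation genes, higher), 1 to 2 (degradation genes, lower), 3 to 6 (signalling genes, higher), 2 to 3 (signalling genes, lower) and 0 to 1 (entry genes, lower). The fewest degradation genes came without CD replicate 1 or CD replicate 3, and the fewest signalling genes without SGFD replicate 1 or CD replicate 3.

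The diets share replicate numbers, but deviations of same-numbered libraries correlated at -0.007, -0.227 and -0.133, and no library correlated best with its own number. With 3 libraries per diet, each centred on its diet mean, these correlations depend on one another and cannot exclude a pairing. The labels state none. With the replicate block, 1706 genes were higher and 4087 lower, members stayed at 7 higher and 1 lower with no member's call changed, degradation genes higher numbered 4 and entry genes lower 0. Counting error was small beside the spread between SGFD libraries for Hspa5 and Ern1; for Derl3 and other genes under the filter, depth limited what could be tested.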

Other observations

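Among SGFD libraries, replicate 2 was highest for Hspa5, Ern1, Canx, Hsp90b1 and Pdia6, and also for Atf4, Ddit3, Ppp1r15a, Eif2ak3, Dnajb9 and Syvn1, while replicate 3 was highest for Calr, Pdia3 and Xbp1. Replicate 3 was lowest for Hspa5, Ern1, Atf6, Atf4, Ddit3, Ppp1r15a, Eif2ak3 and Dnajb9. These genes were chosen after their values were seen, and no test was made of the order.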
